A study of Mus musculus with 8 samples.

Results

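The genes described here are 31 genes of cholesterol synthesis, its control by the SREBP transcription factors, and cholesterol removal under the liver X receptors (LXR). They were chosen by name, with earlier results of these data known, and are 31 of the 15465 genes in the deposited table. They comprise 18 enzymes of synthesis, 5 SREBP regulators, and 8 genes of LXR signalling, efflux and sterol handling. RNA sequencing compared 2 groups of cultured mouse dendritic cells, 4 samples given the negative control siRNA (si-nc) and 4 given si-Suclg2. Suclg2 encodes a subunit of a mitochondrial succinyl-CoA ligase, and the series title ties it to the tolerance-keeping role of these cells, which the labels call diffDC.

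All 8 samples came from wild type mice of strain C57/BL6, whose age is not given in the sources used here. Over 6 days marrow cells were grown with the cytokines GM-CSF and IL-4, and lipopolysaccharide (LPS) was then added for 24 hours. Cells positive for CD11c were taken with magnetic beads, and were next kept with spleen stroma for 9 days. Both groups were then transfected, so every step but the siRNA was shared. No untransfected group was analysed here. The labels do not say whether stroma was removed before RNA extraction, nor whether replicates were separate cultures or mice, so p-values measure only the spread between these samples, which may be technical.

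Suclg2 fell from 4.59 ± 0.122 to 2.48 ± 0.252 FPKM (fragments scaled to transcript length and library size; mean ± SD, n = 4 each), to 53.9% of the si-nc level (two-sided exact permutation p = 0.0286, the smallest that 70 assignments allow). The summed FPKM ran from 506241 to 539290 per sample, and read depth is unknown. Of the dendritic cell markers, Itgax, which encodes CD11c, had a mean of 20.2 ± 2.84 FPKM in si-nc against 12.6 ± 0.958 FPKM in si-Suclg2, whereas Flt3, Zbtb46 and Clec9a were under 1 FPKM in every sample. Macrophage markers were far more abundant in both groups. Over the 9 dendritic cell markers in the table, the summed level ran from 1026.6 to 1220.0 FPKM with si-nc. With si-Suclg2 it ran from 551.8 to 725.2 FPKM, so it moved with the siRNA. Cd74 and H2-Aa made up most of this sum, with means of 883.1 and 210.5 FPKM in si-nc against 505.8 and 109.5 FPKM in si-Suclg2. Of the 6 dendritic cell markers tested, 4 were lower and 0 higher (1 rose with the replicate block, and 1 at an unadjusted limma p under 0.05). The 10 macrophage markers summed to between 14968.0 and 18311.6 FPKM with si-nc and between 12460.8 and 15186.5 FPKM with si-Suclg2. Lyz2 made up most of that sum, with means of 10384 FPKM in si-nc and 7455 FPKM in si-Suclg2. The 10 stroma markers summed to between 25.7 and 44.9 FPKM and between 34.5 and 42.2 FPKM, with Lum, Pdgfra, Pdgfrb and Thy1 under 1 FPKM in every sample. Of the 10 macrophage markers tested 3 rose (Adgre1, Fcgr1 and Ly6c2) and 3 fell (Lyz2, Csf1r and Cd68). Of 5 stroma markers tested 1 rose and 0 fell (3 fell with the block, and 1 at an unadjusted limma p under 0.05). Beside these marker counts, 26.9% of all tested genes passed limma adjusted p 0.05 (14.9% lower and 12.0% higher). With the block 40.5% did (22.5% lower and 18.0% higher). The stroma marker that rose, Pdpn, went from 20.6 ± 2.87 to 27.1 ± 3.27 FPKM and made up most of the stroma sum. Those that fell with the block were Col1a1, Col1a2 and Col3a1, at 54.9%, 58.9% and 57.0% of si-nc (blocked limma adjusted p = 0.00694, 0.0353 and 0.0163). Dcn passed in neither fit. Summed markers of endothelium ran from 20.6 to 30.7 FPKM over all samples, with Cdh5, Tek and Tie1 under 1 FPKM throughout, and those of lymphocytes, neutrophils and red cells did not exceed 3.75 FPKM. The 1 endothelial marker tested, Kdr, did not pass, and the 1 neutrophil marker tested, S100a8, rose from 1.18 ± 0.409 to 2.27 ± 0.723 FPKM (limma adjusted p = 0.0346; called in 3 of the 8 fits that leave out a sample). The part of these markers in the results below was not tested. In bulk RNA, fewer cells of a type and less RNA per cell cannot be told apart.

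Cells build cholesterol from acetyl-CoA through mevalonate, squalene and lanosterol. SREBP proteins are held in the membrane of the endoplasmic reticulum. SCAP escorts them to the Golgi for cleavage when sterol is scarce, and the INSIG proteins hold the complex back when sterol is plentiful. SREBP-2, from Srebf2, mainly drives the genes of cholesterol synthesis, and SREBP-1, from Srebf1, mainly those of fatty acid synthesis. LXR receptors are activated by oxysterols and, paired with RXR receptors, raise genes that export cholesterol. In macrophages and dendritic cells these arms are tied to inflammation, because Ch25h, an interferon-induced enzyme, makes 25-hydroxycholesterol, which restrains SREBP processing and activates LXR.

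The regulator Srebf2, its escort Scap, the sterol-esterifying enzyme gene Soat1 and 4 synthesis genes (Hmgcs1, Sqle, Cyp51 and Msmo1) were lower with si-Suclg2. Srebf1, the LXR alpha gene Nr1h3, the exporter gene Abcg1 and Ch25h were higher. Genes with a mean of at least 1 FPKM in a group were tested with limma on log2(FPKM + 1), and 29 of the 31 members passed this filter. At an adjusted p (Benjamini-Hochberg over all 10176 genes tested) under 0.05, 4 members rose, 7 fell and 18 did not pass. The share of tested members called was 37.9%, against 26.9% of all tested genes, with 14.9% of all tested genes lower and 12.0% higher. The members' median log2 fold change (si-Suclg2 minus si-nc) was -0.12, against -0.03 over all tested genes. In limma with the replicate number as a block, 4 rose and 10 fell, where 40.5% of all tested genes passed (22.5% lower and 18.0% higher). Log2 fold changes below are on the log2(FPKM + 1) scale, where those of low genes come out too small. Of the 29 tested members, 14 had groups that did not overlap, against 29.6% of all tested genes.

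**Figure D1:**
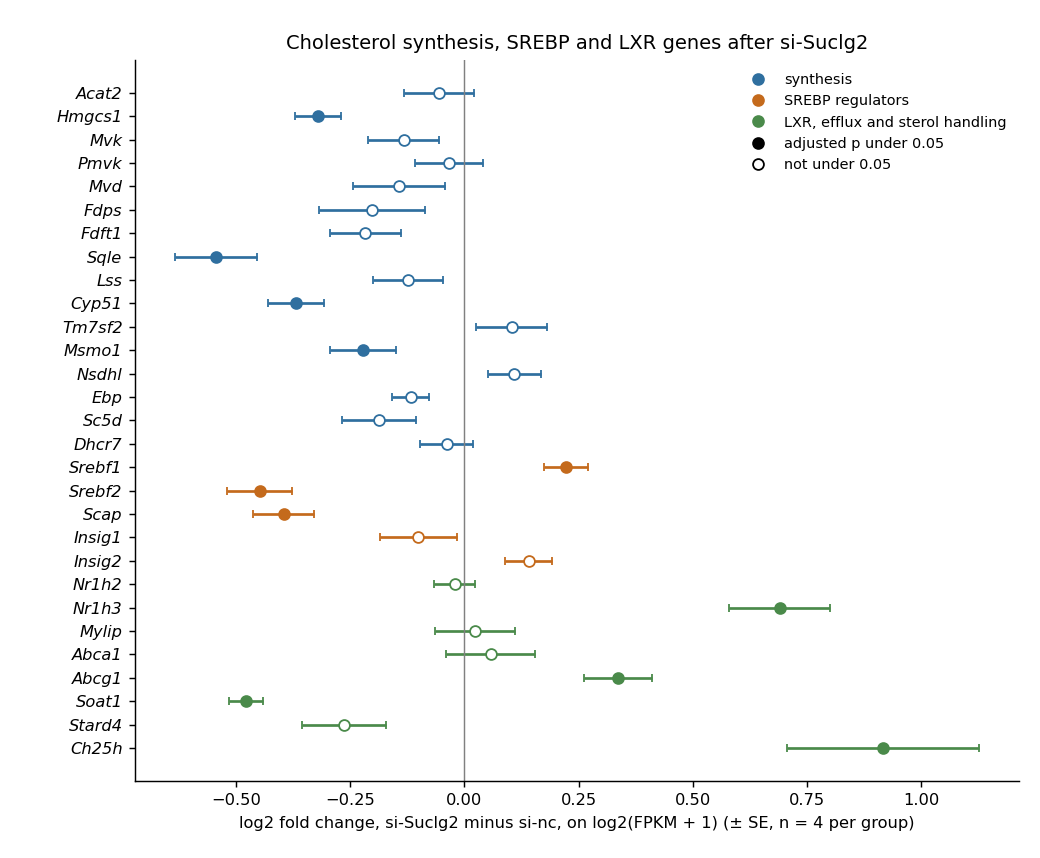
Log2 fold change (si-Suclg2 minus si-nc, on log2(FPKM + 1)) of the 29 members tested, with the standard error from limma as bars and n = 4 per group. Filled points are the 11 genes past adjusted p 0.05, with Sqle lowest at -0.54 and Ch25h highest at 0.92.

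Calls among the genes of synthesis were all falls. Of the 16 tested, 4 fell and 0 rose (0 rose and 7 fell at an unadjusted limma p under 0.05), 14 had a negative log2 fold change, and the median was -0.14. Across all tested genes 55.8% had a negative value. The share of the 16 synthesis genes called was 25.0%, near the 26.9% of all tested genes (14.9% lower and 12.0% higher). The members are ordered below along the pathway.

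Acat2, which joins acetyl-CoA units, had a mean of 1.46 ± 0.151 FPKM in si-nc against 1.36 ± 0.161 FPKM in si-Suclg2 (SD, n = 4 each). Its reads may be shared with the similar gene Acat3, so its value is uncertain. Hmgcs1 encodes the cytosolic synthase that makes HMG-CoA. Its levels were 11.2, 10.8, 9.97 and 10.5 FPKM in si-nc replicates 1 to 4 and 8.19, 8.53, 8.44 and 8.09 FPKM in the si-Suclg2 replicates. Every si-Suclg2 sample was below every si-nc sample. The log2 fold change was -0.32 ± 0.050 SE, with a limma adjusted p of 0.00143.

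Hmgcs1 (gene ID 208715, GRCm38 chromosome 13, 119690351 to 119708260, plus strand, protein-coding) was the 1 member whose promoter window, where found, matched the sterol element searched. SREBP binds sterol regulatory elements, and only the letters TCACNCCAC were searched. The window is shown because of that match. It runs from 250 bases before the start site to 50 bases after it (chr13:119690101-119690400, plus strand, RefSeq GRCm38.p6). Capitals mark the sterol element TCACNCCAC, which begins 137 bases before the start, and 4 CCAAT boxes, which all lie on the opposite strand and so read ATTGG.
Hmgcs1 promoter: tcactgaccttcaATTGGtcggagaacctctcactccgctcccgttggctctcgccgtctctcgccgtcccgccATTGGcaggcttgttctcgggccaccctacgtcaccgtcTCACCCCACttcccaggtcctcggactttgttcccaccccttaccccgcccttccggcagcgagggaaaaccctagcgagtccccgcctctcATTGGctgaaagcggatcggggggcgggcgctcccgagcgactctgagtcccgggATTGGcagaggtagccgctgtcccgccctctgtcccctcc

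Promoter windows were found for 26 members, 15 of them synthesis genes, and both strands were searched. No window was found for Fdps, Fdft1, Sqle, Abcg1 and Stard4, so these were not searched. The sterol element TCACNCCAC was present in 1 of the 26 members and in 1.24% of all 32851 promoter windows. CCAAT, the box bound by NF-Y, stood in 14 of the 15 synthesis genes and in 37.4% of all windows. GGGCGG, the GC box bound by Sp1, stood in 14 of the 15 and in 35.7% of all windows. CACGTG, an E-box, was found in 3 of the 15 and in 7.15% of all windows. The LXR element searched, AGGTCA repeated after a spacer of 4 bases, was found in 0 of the 26 members and in 0.0152% of all windows. The 26 members had 35 windows, and members with several start sites count once if any of their windows matched. The shares of all windows count each window by itself, so the counts of genes are not directly comparable with them. These matches describe letters in the windows and are not evidence of binding.

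The next enzymes, of mevalonate phosphorylation and prenyl synthesis, did not pass. Mvk, the mevalonate kinase gene, was at 7.06 ± 0.515 and 6.36 ± 0.651 FPKM. Pmvk was at 6.54 ± 0.176 and 6.39 ± 0.715 FPKM, and Mvd, the decarboxylase gene, at 4.57 ± 0.257 and 4.08 ± 0.756 FPKM (SD, n = 4 per group, si-nc named before si-Suclg2 throughout). Idi1, the isomerase gene, was under the filter at 0.653 ± 0.294 and 0.623 ± 0.293 FPKM and was not tested. Fdps, which makes farnesyl diphosphate, was at 9.46 ± 0.926 and 8.17 ± 1.48 FPKM (limma adjusted p = 0.237; 0.0227 with the replicate block). It was lower in the si-Suclg2 sample of each number, but the groups overlapped.

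Fdft1, which makes squalene and so commits the pathway to sterol, had log2 fold change -0.22 ± 0.078 (SE), at 2.65 ± 0.165 and 2.15 ± 0.276 FPKM (limma adjusted p = 0.0664; 0.0363 blocked by replicate; 0.0413 without si-Suclg2 replicate 3). Sqle encodes squalene epoxidase, a rate-limiting enzyme. It was at 3.27, 2.82, 2.50 and 2.69 FPKM with si-nc and at 1.73, 1.51, 1.90 and 1.35 FPKM with si-Suclg2. The groups did not overlap, and the mean ratio was 0.575, the lowest of the 31 members. The log2 fold change was -0.54 ± 0.089 SE, with a limma adjusted p of 0.00189. Lss, which closes the ring to lanosterol, was at 2.08 ± 0.209 and 1.82 ± 0.177 FPKM (limma adjusted p = 0.275).

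Among the enzymes that turn lanosterol into cholesterol, Cyp51 and Msmo1 fell. Cyp51, the lanosterol demethylase gene, was at 4.09, 4.10, 3.64 and 4.30 FPKM with si-nc and at 2.96, 2.71, 2.98 and 2.93 FPKM with si-Suclg2. No si-Suclg2 sample reached the lowest si-nc sample (limma adjusted p = 0.0021, log2 fold change -0.37 ± 0.062 SE). Msmo1, the methylsterol oxidase gene, was at 22.1, 21.9, 18.8 and 20.0 FPKM with si-nc and at 17.6, 15.5, 18.6 and 18.7 FPKM with si-Suclg2. The groups were separated by little, since si-nc replicate 3 was just above si-Suclg2 replicates 3 and 4. Its log2 fold change was -0.22 ± 0.072 SE, with a limma adjusted p of 0.0464. Leaving out any 1 sample other than si-nc replicate 3 lost this call, with limma adjusted p from 0.0531 to 0.117, and in numbers 3 and 4 alone the log2 fold change was -0.06.

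The remaining late enzymes did not pass. Ebp, the sterol isomerase gene and the most abundant of the synthesis members, was at 28.2 ± 0.504 and 26.0 ± 0.886 FPKM, without overlap (limma adjusted p = 0.0573; 0.0405 blocked by replicate; 0.0435 without si-Suclg2 replicate 4). Sc5d, the lathosterol desaturase gene, was at 6.04 ± 0.5 and 5.19 ± 0.594 FPKM (limma adjusted p = 0.118; 0.0479 without si-Suclg2 replicate 4). Dhcr7, which reduces 7-dehydrocholesterol, was at 16.5 ± 0.656 and 16.0 ± 1.16 FPKM. Positive log2 fold changes in this class were those of Tm7sf2, a sterol reductase gene (0.10 ± 0.078 SE, limma adjusted p = 0.370), and Nsdhl, a sterol dehydrogenase gene (0.11 ± 0.057 SE, limma adjusted p = 0.193). Hsd17b7, a sterol ketoreductase gene, was under the filter at 0.520 ± 0.056 and 0.508 ± 0.094 FPKM.

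**Figure D2:**
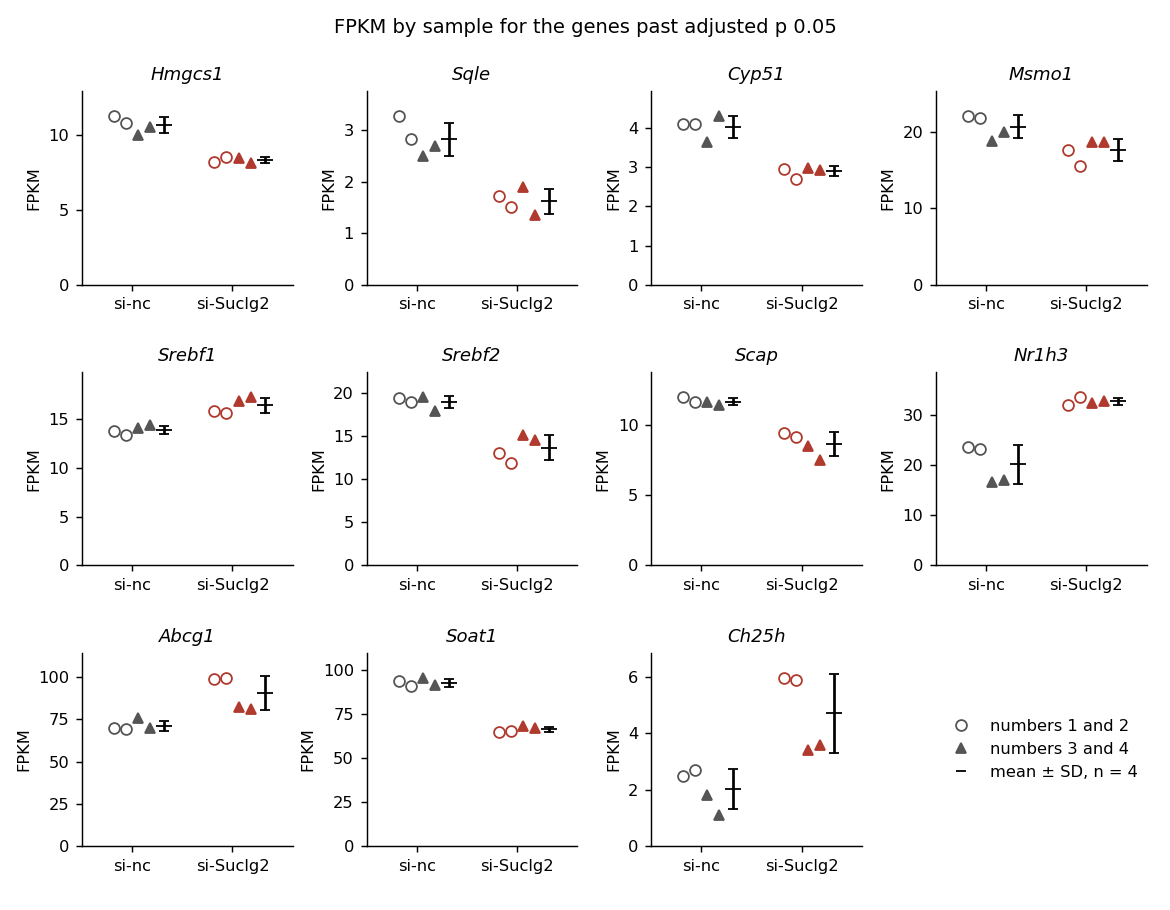
FPKM of each sample for the 11 members past adjusted p 0.05, with axes from 0, open circles for replicate numbers 1 and 2, triangles for 3 and 4, and the mean ± SD (n = 4) beside each group. In all 11 genes the groups do not overlap. Within groups, replicates 1 and 2 stand apart from 3 and 4 in many of the genes. Among these are Nr1h3 in si-nc, Abcg1, Srebf1, Srebf2 and Scap in si-Suclg2, and Ch25h and Msmo1 in both.

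Among the SREBP regulators, the genes for the transcription factors moved in opposite directions. Srebf2 was at 19.5, 19.0, 19.6 and 18.0 FPKM with si-nc and at 13.1, 12.0, 15.1 and 14.6 FPKM with si-Suclg2. All si-Suclg2 samples were below all si-nc samples (limma adjusted p = 0.0016, log2 fold change -0.45 ± 0.072 SE). Srebf1 was at 13.8, 13.4, 14.1 and 14.4 FPKM with si-nc and at 15.8, 15.6, 16.9 and 17.3 FPKM with si-Suclg2. Here every si-Suclg2 sample was above every si-nc sample (limma adjusted p = 0.00815, log2 fold change 0.22 ± 0.048 SE). With si-nc the mean FPKM of Srebf2 was the higher of the 2, and with si-Suclg2 that of Srebf1 was. The values are per gene and do not separate the SREBP-1a and SREBP-1c transcripts.

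Scap was at 12.0, 11.6, 11.6 and 11.4 FPKM with si-nc and at 9.40, 9.15, 8.47 and 7.52 FPKM with si-Suclg2. The groups did not overlap (limma adjusted p = 0.00203, log2 fold change -0.40 ± 0.066 SE). The retention factor Insig1, itself a target of SREBP, was at 9.08, 8.37, 8.71 and 8.72 FPKM with si-nc and at 7.32, 6.96, 9.08 and 9.09 FPKM with si-Suclg2. Only si-Suclg2 replicates 1 and 2 lay below the si-nc range, and the log2 fold change was -0.10 ± 0.085 SE, with a limma adjusted p of 0.426. Insig2, which is not under SREBP control in this way, was at 7.32, 6.81, 6.97 and 7.58 FPKM with si-nc and at 7.66, 8.13, 8.12 and 8.10 FPKM with si-Suclg2. Its groups were just separated, but it missed the threshold (limma adjusted p = 0.0695, log2 fold change 0.14 ± 0.051 SE; 0.0424 after quantile normalization).

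Of the LXR receptor genes, Nr1h3 rose and Nr1h2 did not pass. Nr1h3, for LXR alpha, was at 23.5, 23.3, 16.7 and 17.0 FPKM with si-nc and at 31.9, 33.5, 32.3 and 32.8 FPKM with si-Suclg2. It was higher in every si-Suclg2 sample, and its si-nc levels split by number where the si-Suclg2 levels did not (limma adjusted p = 0.0016, log2 fold change 0.69 ± 0.11 SE). Nr1h2, for LXR beta, was at 52.6, 53.0, 57.7 and 56.8 FPKM with si-nc and at 53.8, 52.2, 55.5 and 55.2 FPKM with si-Suclg2. Its groups overlapped, and the log2 fold change was -0.02 ± 0.045 SE, with a limma adjusted p of 0.764. In FPKM, LXR beta stayed the more abundant of the receptors in each group, at 55.0 ± 2.58 against 20.1 ± 3.80 with si-nc and at 54.2 ± 1.53 against 32.7 ± 0.678 with si-Suclg2 (SD, n = 4).

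Of the LXR targets in the class of LXR signalling, efflux and sterol handling, Abcg1 rose, and Abca1 and Mylip did not pass. Abcg1, which passes cholesterol to high-density lipoprotein, was at 69.8, 69.1, 75.5 and 69.6 FPKM with si-nc and at 98.5, 99.4, 82.2 and 81.2 FPKM with si-Suclg2. It was higher in every si-Suclg2 sample, most in numbers 1 and 2 (limma adjusted p = 0.0088, log2 fold change 0.34 ± 0.074 SE). Abca1, which loads cholesterol onto apolipoprotein A-I, was at 29.0, 26.5, 36.1 and 32.4 FPKM with si-nc and at 35.1, 34.6, 29.2 and 29.7 FPKM with si-Suclg2. It was higher with si-Suclg2 in numbers 1 and 2 and lower in numbers 3 and 4, so that over all samples the log2 fold change was 0.06 ± 0.098 SE, with a limma adjusted p of 0.714. Mylip, also called Idol, encodes a ubiquitin ligase that removes lipoprotein receptors from the cell surface. It was at 28.8, 27.8, 35.3 and 33.1 FPKM with si-nc and at 33.9, 34.2, 28.2 and 30.6 FPKM with si-Suclg2. It showed the same crossing by number as Abca1 (log2 fold change over all samples 0.02 ± 0.088 SE, limma adjusted p = 0.873).

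**Figure D3:**
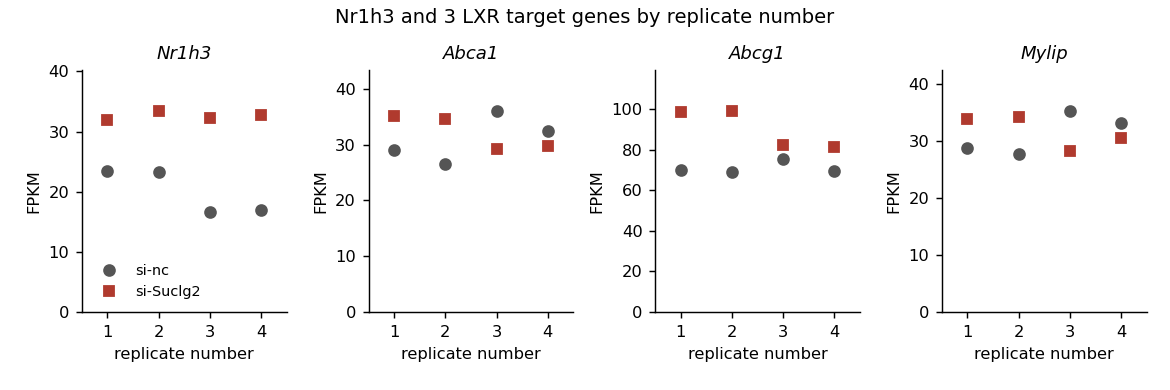
FPKM of Nr1h3, Abca1, Abcg1 and Mylip against replicate number, 1 point per sample, with si-nc as circles and si-Suclg2 as squares and axes from 0. In Abca1 and Mylip the squares lie above the circles for numbers 1 and 2 and below them for numbers 3 and 4, while Nr1h3 and Abcg1 are higher with si-Suclg2 at every number.

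Soat1, which esterifies cholesterol for storage in droplets, had the smallest p of the members. It was at 93.7, 90.9, 95.6 and 91.4 FPKM with si-nc and at 65.0, 65.6, 68.1 and 67.0 FPKM with si-Suclg2. The groups lay far apart next to their spread (mean ratio 0.715, log2 fold change -0.48 ± 0.037 SE, limma adjusted p = 2.51e-05). Stard4, a carrier of sterol between membranes and a target of SREBP-2, was low, at 1.35, 1.2, 0.88 and 1.26 FPKM with si-nc and at 0.69, 0.73, 0.99 and 0.82 FPKM with si-Suclg2. Only si-nc replicate 3 reached into the si-Suclg2 range (limma adjusted p = 0.0608, log2 fold change -0.26 ± 0.092 SE; 0.0229 without si-nc replicate 3). Ch25h was at 2.48, 2.71, 1.83 and 1.11 FPKM with si-nc and at 5.97, 5.90, 3.43 and 3.59 FPKM with si-Suclg2. It was higher at every number, with a ratio of means of 2.32, and numbers 1 and 2 were the higher ones in each group (limma adjusted p = 0.0107, log2 fold change 0.92 ± 0.210 SE).

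Of the 11 members called, 6 share exon sequence with another annotated gene (Ch25h, Cyp51, Hmgcs1, Nr1h3, Scap and Srebf1). Among all 31 members 11 do, the others being Fdft1, Fdps, Idi1, Lss and Tm7sf2. Whether counting used strand is not given in the sources used here, so reads of the overlapping genes may enter the values of these members. In the authors' deposited table, 21 of the 31 members had a DEGseq q-value under 0.05, 14 lower and 7 higher, against 47.6% of all 15465 genes.

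The replicate numbers divide the samples into 1 and 2 against 3 and 4, and the response of several members was therefore also read within each side. In numbers 1 and 2 alone 6 members were higher and 14 lower, where 31.1% of all genes tested were called (14.4% higher and 16.7% lower). In numbers 3 and 4 alone 4 were higher and 8 lower, where 32.6% of all genes were called (14.7% higher and 17.9% lower). Of the 11 members called over all samples, 10 were called in the same direction on both sides, the exception being Msmo1. Each side is part of the samples behind the call over all samples, so this agreement is no independent replication. The like share of all called genes is not given here. Abca1 and Mylip were called in opposite directions, with log2 fold changes of 0.32 and 0.26 in numbers 1 and 2 and of -0.21 for each in numbers 3 and 4. Of the synthesis genes 9 were lower in numbers 1 and 2 and 3 in numbers 3 and 4, with medians of -0.28 and -0.06.

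Whether the response itself differed between the sides was tested with an interaction term in limma, chosen after the division had been seen, with 2 samples per group on each side. It was called for 103 of 10176 genes, 1.01%, and for 4 of 29 members, all of them LXR genes: Nr1h3, Abca1, Mylip and Abcg1. The rise of Nr1h3 was larger in numbers 3 and 4 (log2 fold change 0.91 against 0.47, difference 0.45 ± 0.064 SE, limma adjusted p = 0.0161). The others had the smaller or negative value there, with differences of -0.53 ± 0.086 for Abca1 (limma adjusted p = 0.0269), -0.47 ± 0.075 for Mylip (0.0241) and -0.33 ± 0.063 for Abcg1 (0.043). With the replicate block 0 members passed, where 0.364% of all tested genes did, and the limma adjusted p for these 4 were 0.0547, 0.0551, 0.0766 and 0.0839. Leaving out si-nc 1, si-nc 2, si-Suclg2 1 or si-Suclg2 3 lost all 4 calls, so that 0 members passed. Without si-Suclg2 2 or 4 only 1 member passed, without si-nc 3 there were 3, and without si-nc 4 all 4 remained. The same test called 3 of the 6 dendritic cell markers tested. Ccr7 crossed as Abca1 and Mylip did, with log2 fold changes of 0.32 in numbers 1 and 2 and -0.61 in numbers 3 and 4 (limma adjusted p = 0.00743 for the difference; 0.0204 with the block). Clec10a fell more in numbers 3 and 4 (-1.75 against -0.90; 0.00739 and 0.0198 with the block), and H2-Aa fell less there (-0.78 against -1.16; 0.0337 and 0.0527 with the block). The part of these markers' cells in the LXR genes' differences was not tested. Of the 10 macrophage and 5 stroma markers tested, 0 were called in the limma interaction test, with or without the block (5 and 1 at an unadjusted p under 0.05). None of the 16 synthesis genes passed the limma interaction test (4 at an unadjusted p under 0.05, 0 with the block), so their lower count in numbers 3 and 4 was not shown to be a difference in response.

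Part of this division was already present without the knockdown. Within si-nc, numbers 3 and 4 were above numbers 1 and 2 by 0.29 for Abca1 and 0.27 for Mylip on the log2 scale (limma adjusted p = 0.00831 and 0.00709), and below them by -0.45 for Nr1h3 and -0.56 for Ch25h (limma adjusted p = 0.000232 and 0.0103), where 21.3% of all tested genes passed. No other member passed. For Abcg1 the si-nc difference was 0.06 (limma adjusted p = 0.36). Ch25h was not called in the interaction test (limma adjusted p = 0.912). What the numbers stand for is not given in the sources used here.

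**Figure D4:**
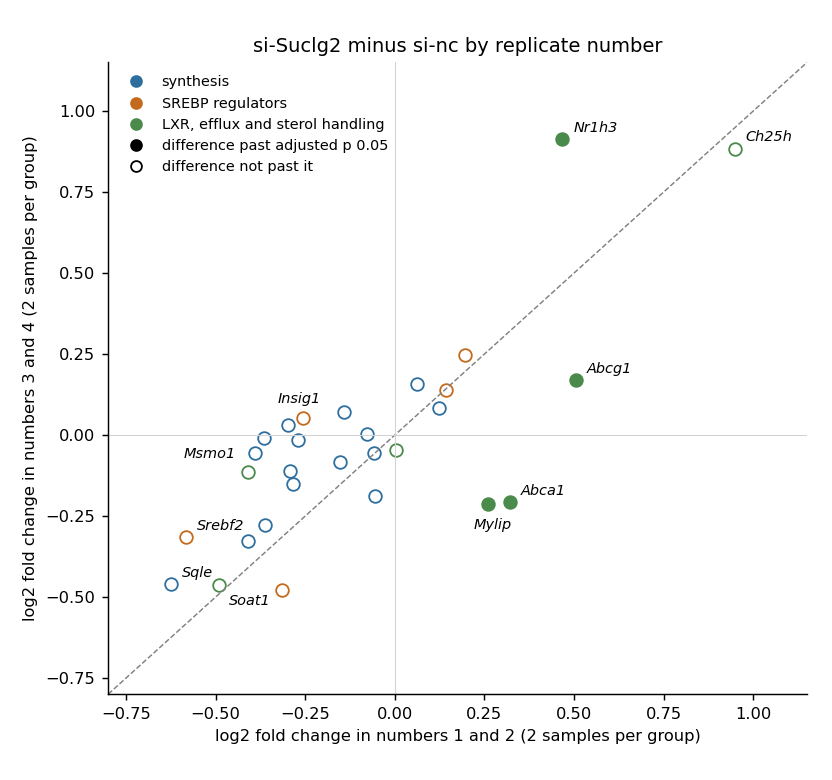
Log2 fold change (si-Suclg2 minus si-nc) in replicate numbers 1 and 2 on the horizontal axis and in 3 and 4 on the vertical axis, for the 29 tested members, with equal values on the dashed line. Filled points are the 4 genes whose difference passed adjusted p 0.05, of which Abca1 and Mylip lie below 0 on the vertical axis only.

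Other genes around the pathway were read from 6 lists. Of 65 genes tested on them 5 rose and 12 fell, 26.2% against 26.9% of all tested genes, so the 6 lists were together near the background, and the blocked fit gave 14 rises and 18 falls.

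The machinery that cleaves SREBP and degrades sterol sensors had 1 rise and 1 fall among 11 genes (2 and 2 with the block; median 0.06). The fall in Mbtps1, the Golgi protease that makes the initial cut in SREBP, was from 13.1 ± 0.635 to 10.7 ± 0.699 FPKM (limma adjusted p = 0.00872; 0.0907 in numbers 1 and 2 alone). Ube2g2, for a ubiquitin-conjugating enzyme of protein degradation at the endoplasmic reticulum, rose from 35.8 ± 1.97 to 40.7 ± 1.72 FPKM (limma adjusted p = 0.0277; 0.0593 to 0.068 without si-nc replicate 3 or 4, or without si-Suclg2 1 or 2).

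Of 11 genes of acetyl-CoA supply and SREBP-driven fatty acid synthesis, 1 rose and 1 fell (3 and 2 with the block; median -0.01). They moved in opposite directions. Scd2, a stearoyl-CoA desaturase gene, rose without overlap from 7.89 ± 1.03 to 14.1 ± 0.764 FPKM (limma adjusted p = 0.000165). The fatty acid synthase gene Fasn fell from 3.10 ± 0.364 to 2.08 ± 0.440 FPKM (limma adjusted p = 0.0183; 0.0501 to 0.0515 without si-nc 1, si-nc 2 or si-Suclg2 4). Of 14 genes on the nonsterol branches of mevalonate, which make ubiquinone, dolichol and protein prenyl groups, 0 rose and 0 fell in limma (2 and 2 at an unadjusted p under 0.05, and 2 and 2 with the block; median 0.04).

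Uptake, lysosomal release and transfer of sterol had 3 rises and 4 falls among 14 genes (5 and 5 with the block; median -0.02). Msr1, a scavenger receptor gene for modified lipoprotein, rose from 92.3 ± 21.3 to 163.5 ± 22.3 FPKM (limma adjusted p = 0.00407), and Gramd1a, for a protein that moves cholesterol from the plasma membrane to the endoplasmic reticulum, from 15.0 ± 2.56 to 26.2 ± 5.81 FPKM (limma adjusted p = 0.007). The high-density lipoprotein receptor gene Scarb1 fell from 16.5 ± 0.292 to 12.5 ± 1.31 FPKM (limma adjusted p = 0.00272), and Lipa, the lysosomal acid lipase gene, from 471.6 ± 31.1 to 354.9 ± 31.9 FPKM (limma adjusted p = 0.00277). The remaining calls were a rise in Stard3 and falls in Npc2 and Nceh1 (limma adjusted p = 0.0203, 0.0257 and 0.0293). Their groups did not overlap, as for 29.6% of all tested genes. Of the 8 fits that leave out a sample, 4, 3 and 4 kept these calls, with limma adjusted p up to 0.059, 0.0706 and 0.0779.

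Other LXR targets and RXR partners had 0 rises and 4 falls among 12 genes in limma (0 and 4 at an unadjusted p under 0.05, and 2 and 5 with the block; median -0.03). The LXR target Apoe, whose product carries cholesterol away from macrophages, fell from 9883 ± 1393 to 6433 ± 601 FPKM (limma adjusted p = 0.00349), in the direction opposite to Abcg1. Rxra and Rxrb, genes for partners of LXR, both fell, Rxra from 35.4 ± 1.93 to 29.7 ± 0.761 FPKM and Rxrb from 23.0 ± 0.883 to 20.4 ± 0.620 FPKM (limma adjusted p = 0.00489 and 0.0249). Rxrb lost its call without any of si-nc 2, 3 and 4 and si-Suclg2 3 and 4 (limma adjusted p from 0.058 to 0.0694) and in numbers 1 and 2 alone (0.203). Arl4c, an LXR target gene for a small GTPase, fell from 44.6 ± 8.74 to 33.5 ± 0.838 FPKM (limma adjusted p = 0.0364; 0.0676 to 0.0869 without si-nc 3, si-nc 4 or any 1 si-Suclg2 sample, and 0.064 with no filter), with its si-nc replicates 3 and 4 at 52.8 and 51.5 FPKM above replicates 1 and 2 at 36.4 and 37.7 FPKM. Its fall was larger in numbers 3 and 4 (-0.60 against -0.17; limma adjusted p = 0.0139 for the difference, 0.0464 with the block), the 1 gene of the 6 lists for which the interaction was called (2 genes were with the block).

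On the list of oxysterol enzymes, 2 of 3 tested genes fell and 0 rose (0 rose with the block and 0 at an unadjusted limma p under 0.05). Cyp27a1, which makes 27-hydroxycholesterol, fell from 30.5 ± 8.92 to 15.9 ± 3.50 FPKM (limma adjusted p = 0.012) while Ch25h rose. Ephx1, an epoxide hydrolase gene, fell from 24.4 ± 1.56 to 10.2 ± 1.61 FPKM (limma adjusted p = 3.38e-05, log2 fold change -1.19 ± 0.097 SE). It was placed on this list by name, and its fall is not evidence about oxysterols.

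**Figure D5:**
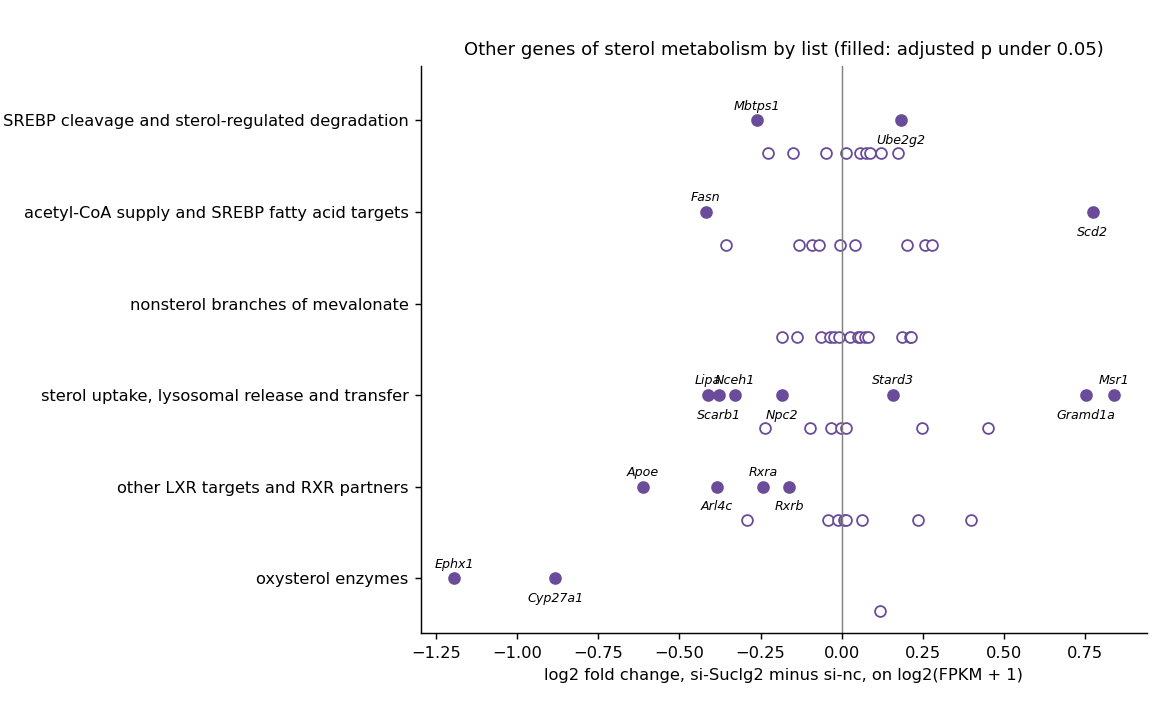
Log2 fold change (si-Suclg2 minus si-nc, on log2(FPKM + 1)) of the 65 tested genes on the 6 lists, 1 row per list, with genes past adjusted p 0.05 filled, named and set on the upper line of each row. Calls lie on both sides of 0 in 3 lists, the nonsterol branches have 0, and the calls among the other LXR targets and the oxysterol enzymes are all negative.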

How the data were processed

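RNA from 4 si-nc and 4 si-Suclg2 samples was isolated using TRIzol and, per the labels' protocols, read on an Illumina HiSeq instrument. The authors deposited 1 table of 15465 genes. Per the submitters' processing notes the builds were GRCm38.p4 and mm10, and no source used here names the aligner or counting tool. The per-sample values were treated as FPKM made by the authors, although the file header names no unit: the reads that the authors' p-values imply per unit of value followed transcript length, with Spearman's rho at 0.833 over 5587 genes (genes are no independent replicates). FPKM and TPM scale alike with length. The values do not sum to the same total in each sample, but TPM over a part of the genes need not either. The check therefore does not tell these units apart. Read depth is unknown, so no counting interval is given. The authors' log2 fold changes and their p-values and q-values, from DEGseq per the file headers, were used only as named.

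The members and all gene lists were chosen with earlier results of these data known. Genes with a mean of at least 1 FPKM in a group (10176) were tested on log2(FPKM + 1) using limma 3.58.1 (R 4.3.3). The model held the group alone, the prior variance followed the mean, and p-values were adjusted by Benjamini-Hochberg over all of these genes, with a threshold of 0.05. Every member is named, and of each pathway list the genes with the smallest p among those called, at most 4. A few genes of the pathway lists are not reported here. Stard3, Npc2 and Nceh1 were named after their values were seen. Replicate numbers come from the sample titles. Deviations of same-numbered samples from their group means correlated with r of 0.405 to 0.553, above the 0.1 required to treat the numbers as pairing the samples. Different numbers on the same side (1 and 2, or 3 and 4) correlated as highly, up to 0.558, those on opposite sides at -0.566 to -0.351, and 1 of 4 numbers correlated best with its own, so these values show the division into sides rather than pairs within a side. Alternatives were a pseudocount of 0.25, other filters, trimmed-mean scaling, quantile normalization, no variance trend, the replicate block, each side of the replicate numbers alone, and each sample left out. The interaction term was added after the division of the samples had been seen. The fits were tested on simulated data. Promoter windows are from RefSeq (GRCm38.p6), and 26 of 31 members matched. Exon overlaps are from GENCODE on GRCm38.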

Additional observations from a re-analysis of the deposited data

Results flagged for a closer look

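Each group of 4 samples was examined for a sample far from the other 3. Of 92 groups examined 4 had one, and chance gives about 1 in 20. Pmvk in si-Suclg2 replicate 2 was at 5.32 FPKM, with the others between 6.62 and 6.80 FPKM. Ebp in si-Suclg2 replicate 4 was at 27.26 FPKM, with the others between 25.32 and 25.63 FPKM. Insig2 in si-Suclg2 replicate 1 was at 7.66 FPKM, with the others between 8.10 and 8.13 FPKM. Abcg1 in si-nc replicate 3 was at 75.5 FPKM, with the others between 69.13 and 69.78 FPKM.

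For 4 LXR genes the response to si-Suclg2 differed between replicate numbers 1 and 2 and numbers 3 and 4 in the limma interaction test. The difference of log2 fold changes, numbers 3 and 4 minus numbers 1 and 2, was 0.45 for Nr1h3, -0.47 for Mylip, -0.53 for Abca1 and -0.33 for Abcg1. These calls were lost with the replicate block. The summed macrophage and dendritic cell markers also differed by number, at 14968.0 and 15095.2 FPKM for macrophage markers in si-nc replicates 2 and 1 against 17003.4 and 18311.6 FPKM in replicates 3 and 4, and their part in these differences was not tested.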

How the results depend on the processing

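Of 184 values of the 11 called members under the alternatives, 173 kept their direction and call and 11 lost the call, all of them Msmo1. Of 300 values of members not called, 277 stayed so, 21 passed the threshold and 2 reversed, these being Abca1 (-0.21) and Mylip (-0.21) in numbers 3 and 4 alone. With the replicate block 1832 genes rose and 2294 fell in the table, against 1221 and 1519, and 7 synthesis genes fell, against 4, with 14 other pathway genes higher, against 5. In numbers 1 and 2 alone 14 members fell, against 7, with 9 synthesis genes lower, 5 LXR and handling genes higher and 2 lower, and 11 other pathway genes higher. In numbers 3 and 4 alone 3 LXR and handling genes fell, against 1, and 11 other pathway genes rose. Without the variance trend 2 LXR and handling genes fell, and after quantile normalization 2 SREBP regulators rose, against 1. The difference between the sides was called for 103 genes and 4 members, but for 4 genes and 0 members with no filter, 20 and 0 without the variance trend, and 37 and 0 with the replicate block. The cause was not tested.

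Leaving out each sample in turn gave log2 fold changes of -0.73 to -0.65 for Suclg2, 956 to 1176 genes higher and 1171 to 1448 lower, 4 members higher and 6 to 8 lower, 3 to 5 synthesis genes lower and 0 higher, 1 to 2 LXR and handling genes lower and 3 higher, and 4 to 7 other pathway genes higher and 8 to 10 lower. The difference between the sides was then called for 9 to 159 genes and 0 to 4 members, the lowest count of genes when si-nc replicate 2 was left out and the highest when si-nc replicate 4 was. It cannot be computed on 1 side alone. The median of all genes was -0.03, -0.01 after trimmed-mean scaling and 0.003 after quantile normalization. Depth is unknown, so low genes such as Stard4, Idi1 and Hsd17b7 carry counting error that could not be given.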
